A study of Mus musculus with 8 samples.

Results

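The sirtuins (Sirt1 to Sirt7) were followed in mouse embryonic stem cells (mESCs) with and without morphine. Of the 44396 loci of the RNA-Seq count table, 7 had a sirtuin as their most frequent gene name, 1 for each of the 7 family members. The cells were an Oct4-GFP line grown without feeders, and all groups carried this reporter. Control cells received 0.9% NaCl and treated cells 10 µM morphine for 24 h, and both were collected at the end of the treatment. Each condition had 2 RNA-Seq libraries of poly(A) RNA and 2 ChIP-Seq libraries of trimethylated lysine 27 of histone H3 (H3K27me3). The study calls the ChIP-Seq replicates biological and the RNA samples duplicates, without saying whether these were separate cultures, so p-values measure the spread between these libraries.

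Sirtuins are enzymes that use NAD+ to remove acetyl or other acyl groups from lysines of histones and other proteins. Because each reaction consumes NAD+, their activity is tied to the metabolic state of the cell. Sirt1, Sirt6 and Sirt7 are mainly nuclear, Sirt2 is mainly cytoplasmic, and Sirt3, Sirt4 and Sirt5 are mitochondrial. Sirt1 deacetylates histones, p53 and FoxO factors and is abundant in pluripotent cells. H3K27me3 is the mark set by Polycomb repressive complex 2 and is typical of silent CpG-rich promoters.

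The family was selected on Sirt1, whose lower RNA and whose H3K27me3 peak after morphine were already known from these data. The Sirt1 values of those contrasts are therefore a description. The values of the other 6 members come from the same fit across all loci.

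The 4 RNA-Seq libraries held 25081266 to 29531096 counts. The 8 mESC marker genes summed to 4038 to 4219 CPM (read counts scaled to the normalized library total) per library, with Dppa3 at about 1 CPM. Pou5f1 stood at 1183 and 1272 CPM in the controls and at 1507 and 1370 CPM after morphine. Nanog stood at 439 and 434 against 396 and 410 CPM, and Tfcp2l1 at 524 and 472 against 420 and 451 CPM. These 3 markers and Dppa3 did not overlap between conditions, in opposite directions, whereas Sox2, Klf4, Zfp42 and Esrrb overlapped. Of all tested loci, 52.7% did not overlap, so this is no result about the markers. Morphine replicate 1 was the extreme library for Pou5f1, Nanog and Tfcp2l1, as for Sirt1. Its part in the sirtuin values was not tested beyond fits that left it out. Sums of 3 markers each were 41.1 to 44.8 CPM for ectoderm, 20.1 to 22.0 CPM for epiblast-like cells, 9.36 to 11.2 CPM for fibroblasts, 4.01 to 5.39 CPM for mesoderm and 14.4 to 17.6 CPM for primitive endoderm. In bulk RNA, fewer cells of a type and less RNA per cell cannot be told apart.

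The start of Sirt1 stood apart from those of its relatives in base composition. The 250 bases before the RefSeq start of Sirt1 (GRCm38.p6, chr10:63339036-63339285, minus strand) had a GC content of 79.2% and 39 CpG dinucleotides, a CpG count at the 98.7 percentile of 32851 RefSeq promoters of the same length. Of these bases, 15 are annotated as untranslated region in GENCODE. The 8 windows of the other members had 12 to 21 CpG, and the median promoter had 6. The Sirt1 window is shown because the H3K27me3 peaks described further on lie next to it, and part of the Sirt5 window (chr13:43365285-43365484, plus strand, 200 bases with 8 CpG, of 13 in its full 250 bases; the bases next to the start, where a GENCODE transcript begins, are left out), a mitochondrial member with no peak within 5 kb, is shown for contrast. Capitals mark CpG dinucleotides, and both sequences run 5′ to 3′ on the strand of the gene.
Sirt1 promoter: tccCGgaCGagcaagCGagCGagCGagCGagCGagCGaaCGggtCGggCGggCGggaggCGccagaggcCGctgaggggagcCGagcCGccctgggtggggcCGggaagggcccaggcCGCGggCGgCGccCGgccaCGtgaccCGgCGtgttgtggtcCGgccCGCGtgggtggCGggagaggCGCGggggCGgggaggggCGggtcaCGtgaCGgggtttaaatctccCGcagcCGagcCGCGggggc
Sirt5 promoter: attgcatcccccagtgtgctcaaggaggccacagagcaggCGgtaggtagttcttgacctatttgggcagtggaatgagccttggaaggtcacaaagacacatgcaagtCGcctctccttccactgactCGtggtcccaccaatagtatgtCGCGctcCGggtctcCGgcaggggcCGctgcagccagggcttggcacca
The Sirt1 window held 6 copies of the GC box GGGCGG and 2 of the E-box CACGTG, counted on both strands. Among all promoters, 32.7% held a GC box and 6.02% an E-box, and no window of another member held this E-box. A GC box was found in at least 1 window of 5 of the other 6 members, Sirt4 being the exception. The half-site TGACGT, present in 6.47% of promoters, was in none of the sirtuin windows. These matches describe letters in the windows and no binding was measured.

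Sirt1 was by far the most abundant member per length of transcript. Levels are given here as normalized CPM per kb of locus, which allows genes to be compared. Sirt1 ran from 46.9 to 63.6 CPM per kb over the 4 libraries, at the 93.3 percentile of tested loci. Sirt6 (13.6 to 15.7 CPM per kb) and Sirt2 (13.7 to 15.7 CPM per kb) followed and overlapped each other. Sirt3 (6.48 to 7.32 CPM per kb) and Sirt7 (5.22 to 5.99 CPM per kb) came next without overlap. Sirt5 (2.71 to 3.70 CPM per kb) and Sirt4 (2.41 to 3.20 CPM per kb) were lowest and overlapped. The mitochondrial members thus lay in the lower part of the order, with Sirt3 above the nucleolar Sirt7 and the other two below it. With transcript lengths from GENCODE in place of the locus lengths, Sirt1 stayed highest at a mean of 49.8 CPM per kb, Sirt3 (11.0) and Sirt7 (10.8) came close to Sirt2 (12.9), and Sirt4 passed Sirt5 (2.59).

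**Figure D1:**
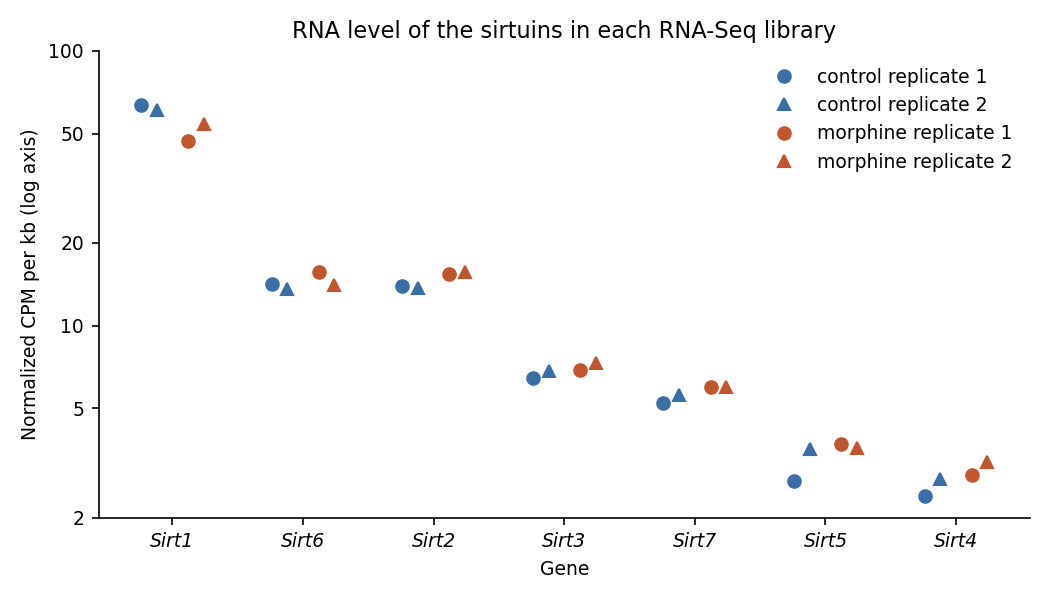
RNA level of each sirtuin in every RNA-Seq library, as normalized CPM per kb of locus on a log axis; each point is 1 library, with blue for control, orange for morphine and the shape for the replicate number. Sirt1 lies at 46.9 CPM per kb or more in all 4 libraries, whereas the other members reach at most 15.7 CPM per kb.

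Among the nuclear members, Sirt1 RNA was lower after morphine. Sirt1 (chr10:63319005-63339035, mm10) stood at 249 and 239 CPM in control replicates 1 and 2, and at 183 and 211 CPM in morphine replicates 1 and 2. Both morphine libraries lay below both control libraries, and morphine replicate 1 was the lowest. The mean fell from 244 ± 7.13 to 197 ± 19.6 CPM (SD over 2 libraries each), and the fitted log2 fold change was -0.31 (SE 0.06, 95% interval -0.44 to -0.17, FDR = 0.0419 by edgeR's quasi-likelihood test). As Sirt1 was chosen with this difference known, these values give no support of their own. Without morphine replicate 1 the log2 fold change was -0.21 and the FDR 0.387 in edgeR.

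Sirt6 (chr10:81621786-81627608), a deacetylase of histone H3 that acts in DNA repair and glucose metabolism, stood at 32.3 and 31.0 CPM in the controls and at 35.9 and 32.2 CPM after morphine. The libraries of both conditions overlapped, and the log2 fold change was 0.10 (SE 0.07, interval -0.05 to 0.26, FDR = 0.445, edgeR). Sirt7 (chr11:120618372-120625019), which resides in the nucleolus and acts on ribosomal RNA transcription, stood at 17.1 and 18.3 CPM in the controls and at 19.6 and 19.7 CPM after morphine. Its morphine libraries were both above the controls without passing the test, with a log2 fold change of 0.15 (SE 0.08, interval -0.02 to 0.32, FDR = 0.306, edgeR). Its locus contains that of Mir6936, which had at most 1 count in each library.

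Sirt2 (chr7:28766752-28788665), a deacetylase of tubulin and of histone H4, stood at 25.9 and 25.5 CPM in the controls and at 28.7 and 29.2 CPM after morphine. The groups did not overlap, and the replicates lay close together. The log2 fold change was 0.17 (SE 0.07, interval 0.03 to 0.32, unadjusted p = 0.0229, FDR = 0.172, edgeR), which does not pass the threshold over all loci. Sirt2 shares 6616 bp with the antisense locus Gm19897, whose counts were 93, 115, 134 and 145 in control replicates 1 and 2 and morphine replicates 1 and 2, against 711, 751, 727 and 822 for Sirt2. Whether counting used strand is not stated, so reads of both loci may not be fully separated.

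None of the mitochondrial members passed the test. Per length, Sirt3, Sirt5 and Sirt4 lay at the 62.7, 50.5 and 47.1 percentiles of tested loci, with Sirt7 at the 59.3 percentile. Sirt3 (chr7:140863663-140882309), the main mitochondrial deacetylase, stood at 16.5 and 17.5 CPM in the controls and at 17.7 and 18.7 CPM after morphine. Its groups lay side by side without overlap, with a log2 fold change of 0.10 (SE 0.08, interval -0.08 to 0.27, FDR = 0.537, edgeR). Sirt3 shares 69 bp with Ric8a, a gene on the opposite strand.

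Sirt4 (chr5:115478010-115484484), which acts on glutamate dehydrogenase and other metabolic enzymes, stood at 4.33 and 4.96 CPM in the controls and at 5.14 and 5.75 CPM after morphine. The gap between the groups was smaller than the distance between the controls, and the log2 fold change was 0.23 (SE 0.14, interval -0.08 to 0.54, FDR = 0.389, edgeR). Sirt5 (chr13:43365535-43395203), a desuccinylase and demalonylase, stood at 3.71 and 4.89 CPM in the controls and at 5.06 and 4.90 CPM after morphine. Control replicate 1 lay apart from the other 3 libraries, and the log2 fold change was 0.21 (SE 0.16, interval -0.14 to 0.55, FDR = 0.502, edgeR). It was 0.02 without control replicate 1 and 0.43 without control replicate 2, so its size rested on which control was used. With 102 to 162 counts per library, Sirt4 and Sirt5 were the least precisely measured members.

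Counted over the family, 1 of 7 members passed an FDR of 0.05 as lower, the gene used for the selection, where 0.904% of the 20350 tested loci did so. No member passed as higher, where 0.614% of all loci did, and 1.52% of loci passed in either direction. At an unadjusted p under 0.05 the edgeR test gave 1 lower and 1 higher member, Sirt1 and Sirt2, against 10.8% lower and 9.7% higher of all loci, which is near 1 of 7. At the FDR threshold edgeR's exact and likelihood ratio tests each called 1 member, Sirt1, and none as higher. DESeq2 called Sirt1 but gave the other 6 members no adjusted p-value, so it could not call them. At an FDR of 0.01 the quasi-likelihood test called no member, and with length and GC trends removed, as described further on, none passed 0.05. The libraries of both conditions did not overlap for 6 of 7 members, or 5 of 6 without Sirt1, against 52.7% of all loci, which with so few members is no result about the family. The median log2 fold change was 0.15 over the 7 sirtuins and 0.0013 over all tested loci.

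**Figure D2:**
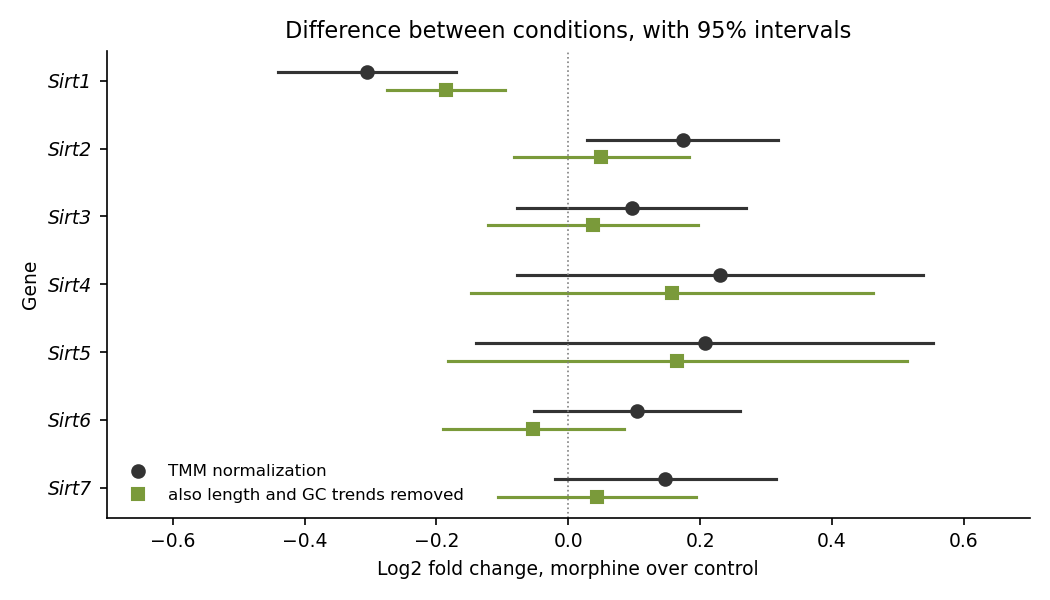
Log2 fold change of each sirtuin, morphine over control, with 95% intervals (lines), after TMM normalization (black circles) and after trends with locus length and GC content were also removed (green squares). Sirt1 lies below 0 in both, from -0.31 to -0.19, whereas the other 6 lie from 0.10 to 0.23 in the first and from -0.05 to 0.17 in the second.

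The weight of Sirt1 within the family restates the Sirt1 difference on which the family was chosen, and is given as a description. Sirt1 gave 2.49 and 2.34 counts for each count of the other 6 members in the controls, and 1.63 and 1.91 after morphine. Both morphine values were below both control values, with means of 2.41 ± 0.109 and 1.77 ± 0.196 (SD, n = 2 each). Per length, Sirt1 made up 58.7% and 57.0% of the family's RNA in the controls and 48.1% and 52.0% after morphine. The summed level of the other 6 was 44.9 and 46.0 CPM per kb in the controls and 50.6 and 49.9 CPM per kb after morphine.

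Base composition moved with these differences. Across 20325 tested loci, log2 fold change rose with the GC content of the locus (Spearman's rho 0.485, a description over loci of the same 4 libraries). The Sirt1 locus had 42.9% GC, and 15.7% of tested loci had that or less, whereas the other members had 51.3% to 58.3% against a median of 49.7%. When trends with length and GC content were removed from each library, the log2 fold change of Sirt1 was -0.19 (SE 0.04, interval -0.28 to -0.10, FDR = 0.0821, edgeR), and no sirtuin passed. Sirt6 changed sign to -0.05, and Sirt2, Sirt3, Sirt4, Sirt5 and Sirt7 lay from 0.04 to 0.17. With the length trend alone removed, the log2 fold change of Sirt1 was -0.30 (FDR = 0.0311, edgeR). With the GC trend alone removed, a fit chosen after seeing the data, it was -0.18 (FDR = 0.0918, edgeR). The part of GC content in the Sirt1 difference was not tested beyond these fits.

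**Figure D3:**
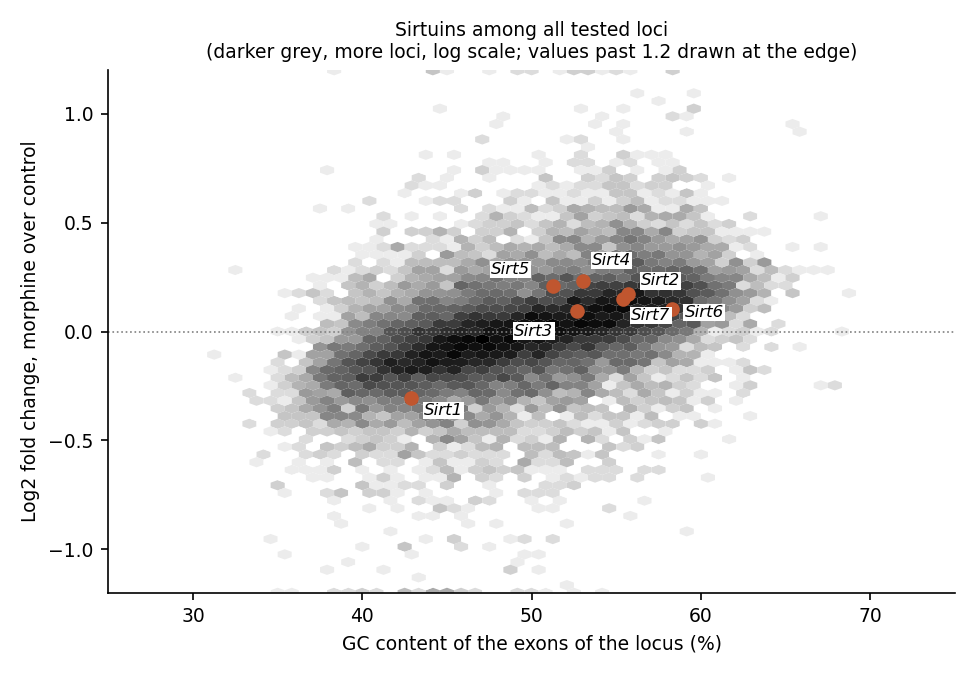
Log2 fold change, morphine over control, against the GC content of the exons of each tested locus; grey hexagons show the density of 20325 loci on a log scale and orange points the 7 sirtuins. Sirt1 lies at 42.9% GC and -0.31, and the other 6 members lie at 51.3% GC or more and above 0.

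H3K27me3 peaks were found near the 5′ end of a single sirtuin, Sirt1, and in the morphine libraries alone. In morphine replicate 1 the peak lay at chr10:63337007-63338644 and in replicate 2 at chr10:63336984-63338694, and these began 391 and 341 bp downstream of the 5′ end. Their scores (-10 times the log10 of the caller's p-value) were 67.7 and 66.7, below the library medians of 83.3 and 83.7, at the 31.9 and 30.5 percentiles. They were 1638 and 1711 bp wide, at the 6.09 and 8.52 percentiles of width, so both were weak and narrow for their libraries. The nearest control peaks lay 145.5 and 118.5 kb away. This pattern was known when the family was chosen. A peak in both morphine libraries and neither control library was seen at 207 of 17583 expressed named loci, or 1.18%, and the reverse pattern at 194 loci. At a score of at least 100, no sirtuin had a peak in any library.

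Both Sirt1 peaks reached from the end of exon 1 through intron 1 into exon 2 of the GENCODE transcript Sirt1-201. The interval they share had 94 CpG and an observed to expected CpG ratio of 0.946. The medians over all peaks on the same chromosome were 0.257 to 0.346 in the 4 libraries. Those peaks lie at any distance from a 5′ end, and peaks near other 5′ ends were not compared. Of the 94 CpG in the shared interval, 28 lay in the 150 bases at the edge next to the gene start (chr10:63338495-63338644, of which 80 are exon 1 and the rest intron 1). The 150 bases at the centre (chr10:63337751-63337900, intron 1) held 3. Both are shown as GRCm38 sequence on the minus strand, with CpG in capitals, because they lie within the peaks called in the morphine libraries.
Sirt1 peak edge: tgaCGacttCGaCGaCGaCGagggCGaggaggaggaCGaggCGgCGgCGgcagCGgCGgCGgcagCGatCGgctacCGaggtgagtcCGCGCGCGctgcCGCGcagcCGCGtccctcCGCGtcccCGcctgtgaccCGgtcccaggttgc
Sirt1 peak centre: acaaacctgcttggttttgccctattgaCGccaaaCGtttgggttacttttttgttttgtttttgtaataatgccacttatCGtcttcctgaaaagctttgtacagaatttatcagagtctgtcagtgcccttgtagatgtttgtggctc
The GC content fell from 76.0% in the first stretch to 39.3% in the second.

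The other 6 sirtuins had no peak within 5 kb of the 5′ end in any of the 4 libraries, as 66.3% of the 17583 loci, and no peak lay over their loci. The nearest peaks were 9.07 to 16.8 kb away for Sirt5 and 9.26 to 10.1 kb for Sirt2. They were 15.8 to 23.7 kb away for Sirt7, 22.3 to 54.5 kb for Sirt4, 51.4 to 94.2 kb for Sirt3 and 56.9 to 58.8 kb for Sirt6. Within 10 kb, Sirt2 also had a peak in morphine replicates 1 and 2, and Sirt5 in both control libraries and morphine replicate 1. The Sirt2 peaks of the controls lay just past that limit, so this difference was one of less than 1 kb in the peak's edge.

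**Figure D4:**
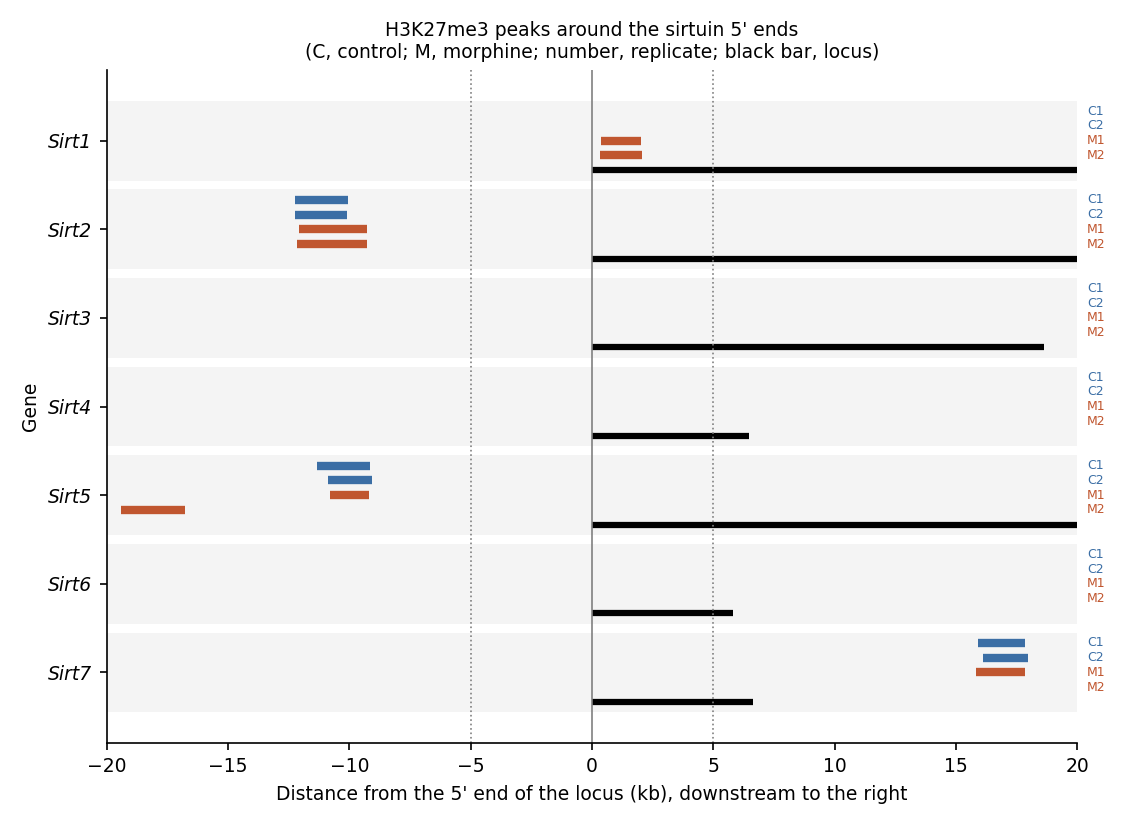
H3K27me3 peaks within 20 kb of the 5′ end of each sirtuin locus, by distance in kb; each row of a gene is 1 library (blue bars, control; orange bars, morphine), black bars are the loci and dotted lines mark 5 kb. Peaks inside the dotted lines occur at Sirt1 in both morphine libraries, and those near Sirt2, Sirt5 and Sirt7 lie 9.07 kb or more from the 5′ end.

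No gene of the related lists passed the test between conditions. Of 70 genes that make NAD, consume it, deacetylate by zinc, or regulate or serve as substrates of sirtuins, 62 were tested and none passed an FDR of 0.05 in edgeR's quasi-likelihood test, where 1.52% of all loci did, so that about 1 gene of a group of this size would be called at that share. At an unadjusted p under 0.05, 3 were lower and 9 higher (4.84% and 14.5% of 62, against 10.8% and 9.7% of all loci). Of the 9 higher genes, 8 were among the 29 regulators and substrates (27.6% higher and 3.45% lower), and the other lists had 0 to 9.09% higher. The loci of these 8 genes had 51.0% to 59.4% GC, all above the median of 49.7%, and with length and GC trends removed 3 of the 29 were lower and 3 higher at an unadjusted p under 0.05 in edgeR. At the FDR threshold edgeR's exact and likelihood ratio tests also called 0. DESeq2 called 0 too, but it gave no adjusted p-value to Sirt6, with up to 912 counts per library. List genes at or below such counts may have had none either, and so could not be called. With no count filter the quasi-likelihood test called 3 of the list genes, where 1657 of 30482 loci were called. The median log2 fold change was 0.06 over the 11 zinc-dependent deacetylases, 0.03 over the 13 tested genes of NAD synthesis, -0.01 over the 9 other NAD consumers and 0.04 over the 29 tested regulators and substrates.

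Where a list gene had several loci, the locus with the most counts was used (of 4 for Nmnat3 and of 2 for Bst1). The largest differences in each list among genes with a mean of at least 1 CPM were as follows. Of the zinc-dependent deacetylases, Hdac11 had a log2 fold change of 0.22 and Hdac8 of 0.21 (FDR 0.389 and 0.308, edgeR). Of NAD synthesis, Nmnat3, a mitochondrial NAD synthase, had 0.28 (1.09 and 1.22 CPM in the controls, 1.70 and 1.14 CPM after morphine), and Naprt, which starts the route from nicotinic acid, had 0.22. Of the other NAD consumers, Bst1, an NAD hydrolase at about 1 CPM, had 0.46, and Tnks, a poly-ADP-ribosyl transferase, had -0.18 (119.5 and 105.0 CPM in the controls, 92.9 and 105.7 CPM after morphine). Of the regulators and substrates, Nr1h3, the liver X receptor alpha, had 0.38 and Hic1, a repressor of Sirt1 transcription, had 0.31. The Nr1h3 and Hic1 libraries were high in morphine replicate 1 alone.

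**Figure D5:**
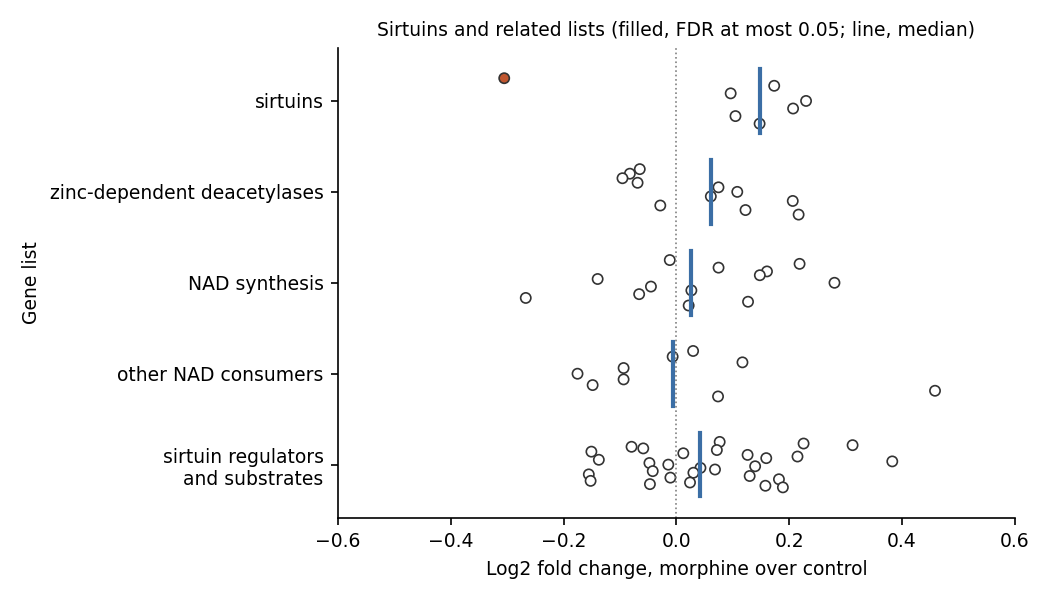
Log2 fold change, morphine over control, of each tested gene of the sirtuins and of 4 related lists; each circle is a gene, filled at an FDR of at most 0.05, and the blue line is the median of the list. Sirt1 at -0.31 is the only filled circle, and the list medians run from -0.01 to 0.15.

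The 5 named loci whose pattern over the 4 libraries was most like that of Sirt1, among 4319 with a mean level within a factor of 4, were Ccdc88a, Tab3, Tmtc3, Kdm1b and Tpp2. Their distances to Sirt1 (Euclidean, on log2 normalized CPM minus the locus mean) were 0.012 to 0.027, against a median of 0.342 over the candidates. Because they were picked for likeness to the Sirt1 values, their order over the libraries and their fold changes follow from that choice and are given as a description. Tpp2, a tripeptidyl peptidase, stood at 201 and 190 CPM in the controls and at 147 and 172 CPM after morphine. The log2 fold changes of the 5 ran from -0.31 to -0.28, and their GC contents from 35.6% to 44.6%, where low GC went with lower values after morphine over all loci. Tab3 and Kdm1b each overlap another locus.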

How the data were processed

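The members and all lists were chosen with earlier results of these data known. Groups came from the sample labels. The authors deposited raw counts per locus, made with HISAT2 (2.1.0), StringTie (1.3.6) and featureCounts (1.6.4) on mm10; use of strand and treatment of multi-mapping reads are not stated. The deposited ChIP-Seq lists hold peaks called by the authors with MACS in each library after Bowtie2 (2.3.5.1) alignment, with a score of -10 times the log10 of the p-value; the methods give a minimum read number per replicate and a non-specific IgG control for the precipitation, but not which control the caller was given, and the lists do not give the reads behind each peak.

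Here, counts were filtered (filterByExpr), TMM-normalized and tested over all loci with edgeR 4.0.16 (quasi-likelihood, Benjamini-Hochberg, FDR 0.05; R 4.3.3). DESeq2 1.42.0 was an alternative. The fits were tested on simulated data. Some loci carry several gene name entries (13 of 34 read Sirt7, 17 of 25 Sirt6 and 21 of 22 Sirt3). Named genes were the 7 sirtuins, the 2 largest log2 fold changes of each list at a mean of at least 1 CPM when none passed, the 5 loci most like Sirt1 and overlapping neighbours. Trends with length and GC were removed by natural splines with 5 degrees of freedom; the trend with GC content alone was chosen after seeing the data. Alternative tests, scalings, filters, peak windows, the replicate block and leaving out each library were tried. Sequences are from RefSeq promoters and the GRCm38.p6 genome.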

Additional observations from a re-analysis of the deposited data

How the results depend on the processing

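Of 105 alternative values of the 7 log2 fold changes, 100 were counted as keeping their direction and their side of the threshold. These include the DESeq2 values of Sirt2 to Sirt7, which kept their direction but had no adjusted p-value, so no side to keep. Sirt1 ran from -0.41 to -0.18 (FDR 1.86e-06 to 0.387), and lost its call with length and GC trends removed (-0.19), with the GC trend alone removed (-0.18, chosen after seeing the data) and without morphine replicate 1, where the lone morphine library is assumed to vary like the controls. Sirt6 turned to -0.0529 and -0.0439 with these trends removed. Leaving out each library gave 0.16 to 0.18 for Sirt2, 0.05 to 0.14 for Sirt3, 0.13 to 0.34 for Sirt4, 0.02 to 0.43 for Sirt5, 0.03 to 0.18 for Sirt6 and 0.10 to 0.20 for Sirt7. The count of sirtuins called was 0 in the 3 fits in which Sirt1 lost its call and at an FDR of 0.01, and leaving out each library gave 0 to 1. The related lists gave 3 called genes with no count filter (Tnks, Rps19bp1 and Tuba1a) and 0 to 2 when each library was left out (Tnks and Rps19bp1 without control replicate 2, Rps19bp1 and Tuba1a without morphine replicate 2); Rps19bp1 and Tuba1a were named after their values were seen. The difference in 5′ ends with a peak was 0 at a score of at least 100. With the replicate block, 1 sirtuin and 0 related genes were called. Same-numbered libraries did not deviate together (correlation 0.011), so the numbers were not taken as pairs.

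Over all loci 309 were called, against 790 (edgeR exact test), 840 (likelihood ratio test), 652 (DESeq2), 515 (total counts), 1657 (no count filter), 1128 (replicate block), 984 (named loci), 98 (length and GC trends removed), 108 (GC trend removed) and 13 to 1619 when each library was left out. Mean levels with GENCODE lengths were 49.8 CPM per kb for Sirt1, 12.9 for Sirt2, 11.0 for Sirt3, 2.59 for Sirt5, 17.4 for Sirt6 and 10.8 for Sirt7.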
